A study of Mus musculus with 25 samples.

Results

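KLF4-centred chromatin contacts were compared between day 3 and day 6 of reprogramming. The members were the interactions in the high-confidence lists of the libraries titled d3-Klf4 (replicates 1 to 3) and d6-Klf4 (replicates 1 to 4), 7 of the 25 libraries of the series, where an interaction, called a contact here, is a pair of 10 kb bins and each bin of the pair is an anchor. The day 3 list held 23720 contacts and the day 6 list 4047, 25176 in all, of which 2591 were in both, 21129 at day 3 alone and 1456 at day 6 alone. Both groups were mouse embryonic fibroblasts (MEFs) taken at E13.5 that were heterozygous for an Oct4-GFP reporter, a doxycycline-inducible OKSM cassette (Oct4, Klf4, Sox2 and c-Myc) and the rtTA3 transactivator, which the design text of the series gives as Rosa26-M2rtTA with the cassette at Col1a1. They were grown in doxycycline with ascorbic acid for 3 or 6 days and fixed in 1% formaldehyde, and the same KLF4 HiChIP was then made. At day 3 the whole culture was used, and at day 6 only cells positive for SSEA1 after sorting, so that time and sorting cannot be told apart. Every cell carried the cassette, which itself supplies KLF4. Neither the labels nor the files say whether the libraries of a day came from separate cultures, and p-values therefore measure only the spread between libraries.

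KLF4 is a zinc finger factor that binds GC-rich CACCC-type sites in promoters and enhancers and is one of the factors that turn fibroblasts into pluripotent cells. HiChIP ligates DNA that is near in space inside fixed nuclei and then pulls down, with an antibody, the ligated fragments that carry the protein, so a contact reports both closeness and KLF4 occupancy at an anchor. SSEA1 is a carbohydrate epitope that appears on the cells that move on in reprogramming, after fibroblast genes are silenced and epithelial genes come on. Fewer cells with a contact and fewer contacts per cell cannot be told apart in such bulk libraries. The lists measure no RNA, and the cell types could only be looked at through contacts at marker genes.

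The gene starts in the anchors give a view of the sequence at issue. The promoters of 5 genes are shown, each as the 250 bases before a start in RefSeq, 5′ to 3′ in the direction of the gene. The RefSeq build was GRCm38.p6, the same as the mm10 of the lists. Zfp36 (chr7:28379229-28379478, minus strand) and Ppp1r18 (chr17:35865345-35865594, plus strand) lie at contacts that fell, Zbtb45 (chr7:13009853-13010102, minus strand) at a contact that was called higher, and the epithelial genes Epcam (chr17:87635729-87635978, plus strand) and Crb3 (chr17:57061951-57062200, plus strand) at contacts in both lists. All were picked, after the values were seen, because they hold the 8-base motif GGGNGTGG or its other strand CCACNCCC, a KLF-type core, which stands in capitals.
Zfp36: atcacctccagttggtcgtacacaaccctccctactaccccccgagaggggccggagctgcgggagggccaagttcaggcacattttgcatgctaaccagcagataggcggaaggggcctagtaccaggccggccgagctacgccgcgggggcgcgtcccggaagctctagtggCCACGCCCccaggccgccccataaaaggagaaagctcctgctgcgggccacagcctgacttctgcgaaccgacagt
Ppp1r18: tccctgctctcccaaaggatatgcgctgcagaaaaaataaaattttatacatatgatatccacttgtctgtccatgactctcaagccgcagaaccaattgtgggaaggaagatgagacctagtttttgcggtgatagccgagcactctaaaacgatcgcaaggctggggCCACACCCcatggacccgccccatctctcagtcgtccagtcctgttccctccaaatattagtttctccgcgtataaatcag
Zbtb45: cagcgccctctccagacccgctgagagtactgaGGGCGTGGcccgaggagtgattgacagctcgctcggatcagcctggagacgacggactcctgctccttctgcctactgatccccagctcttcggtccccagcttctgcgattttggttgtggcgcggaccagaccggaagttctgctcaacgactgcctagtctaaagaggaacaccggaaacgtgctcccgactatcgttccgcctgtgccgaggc
Epcam: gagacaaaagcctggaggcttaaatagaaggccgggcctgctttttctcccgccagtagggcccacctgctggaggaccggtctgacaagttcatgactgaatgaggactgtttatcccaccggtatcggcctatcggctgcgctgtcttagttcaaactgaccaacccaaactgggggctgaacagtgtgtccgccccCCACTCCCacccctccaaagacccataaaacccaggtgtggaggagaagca
Crb3: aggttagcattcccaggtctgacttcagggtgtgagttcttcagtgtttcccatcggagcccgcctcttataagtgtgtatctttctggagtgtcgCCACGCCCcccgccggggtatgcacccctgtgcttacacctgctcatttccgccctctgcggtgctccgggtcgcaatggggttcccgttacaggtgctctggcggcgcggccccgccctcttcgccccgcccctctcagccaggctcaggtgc
The motif begins 51 bases before the start of Epcam, 76 before Zfp36 and 217 before Zbtb45. It begins 81 bases before the Ppp1r18 start shown and 154 before the Crb3 start shown. The other RefSeq starts of Ppp1r18 in the same bin had no match, and for another Crb3 start the distance was 184. Such a motif occurred in the window of 250 bases at 15.9% of all 32816 RefSeq starts searched. The share was 19.7% of starts in day 3 anchors and 23.3% in day 6 anchors. Starts at contacts called lower at day 6 held it in 20 of 78 cases (25.6%, 95% Wilson interval 17.3 to 36.3) and those at contacts called higher in 6 of 18 (33.3%, 16.3 to 56.3), and these intervals overlap. The median GC content of the windows was 52.4% over all starts, 58% in day 3 and in day 6 anchors, 56.8% at lower contacts and 60.4% at higher contacts, and its part in the motif shares was not tested. Starts in anchors of the H3K27ac list of MEFs (H3K27ac marks active enhancers and promoters) held the motif in 18.3% of cases. For the H3K27ac list of embryonic stem (ES) cells the share was 19.7%, the same as in day 3 anchors. The median GC content was 56.4% for the MEF list and 58% for the ES list. Akap7, Tubb5 and Ahnak, whose contacts are described next, had no match in the window, which says only that these letters are not there.

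The libraries held 54.4, 136 and 181 M contacts at day 3 and 48.7, 99.6, 78.4 and 129 M at day 6. Common contacts had medians of 11 to 54 counts in a library. Every listed contact had a CPM (the count scaled to the contact total of the same chromosome in that library) above 3 in replicates 1 and 2 of its day, while the further replicates went below it at 11.9% to 20.2% of contacts. In replicate 1 of day 3, 3 CPM came to 3.85 counts on chromosome 19 and to 13.4 on chromosome 1, so listed contacts of small chromosomes rest on few counts. Chi-square tests between libraries used contacts with a mean of at least 6 CPM over the pair. They found differences beyond sampling noise within every pair of day 3 libraries (1.06 to 1.08 per degree of freedom, 7668 to 9512 contacts). Within the 6 pairs of day 6 libraries they found none (0.922 to 1.01, 784 to 1100 contacts). With fewer contacts the day 6 tests had less power, so they cannot exclude a small spread beyond counting noise. Contacts at cell type markers were counted too. Of all protein-coding genes 24.5% had a contact at day 3 and 7.39% at day 6. Of 6 matched fibroblast markers, 4 had one at day 3 and 0 at day 6, while 5 of the 27 matched genes of the longer fibroblast list had one at day 6. Of 5 matched epithelial markers, 5 had one at day 3 and 3 at day 6, and of 5 matched pluripotency markers 2 and 1 did. The 4 matched markers of other cell types had 0 at either day.

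The contacts of both lists took a smaller part of each library at day 6. They held 0.0909%, 0.0931% and 0.0804% of all contacts in the day 3 libraries and 0.0622%, 0.0575%, 0.059% and 0.0535% in the day 6 libraries. The groups did not overlap, and the means were 0.0881% ± 0.00677 (SD, n = 3) and 0.0580% ± 0.00358 (SD, n = 4), a ratio of 0.659. The exact permutation test over libraries, two-sided, gave p = 0.0571, the smallest value that 35 splits allow, so this design cannot pass 0.05 on a single value (p = 0.114 after Benjamini-Hochberg adjustment over the 2 values tested this way). Of the 2591 common contacts, 2524 (97.4%) had a lower mean CPM at day 6, and their median ratio of day 6 to day 3 was 0.677. In 1329 of them (51.3%) every day 6 library lay below every day 3 library, and in 5 (0.193%) every one lay above. Reads at anchors 50 kb or more apart made up 5.38% ± 0.184 (SD, n = 3) of the reads in common contacts at day 3 and 4.89% ± 0.405 (SD, n = 4) at day 6, where replicate 1 lay within the day 3 range and the others below it (exact permutation test, two-sided, p = 0.114).

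**Figure D1:**
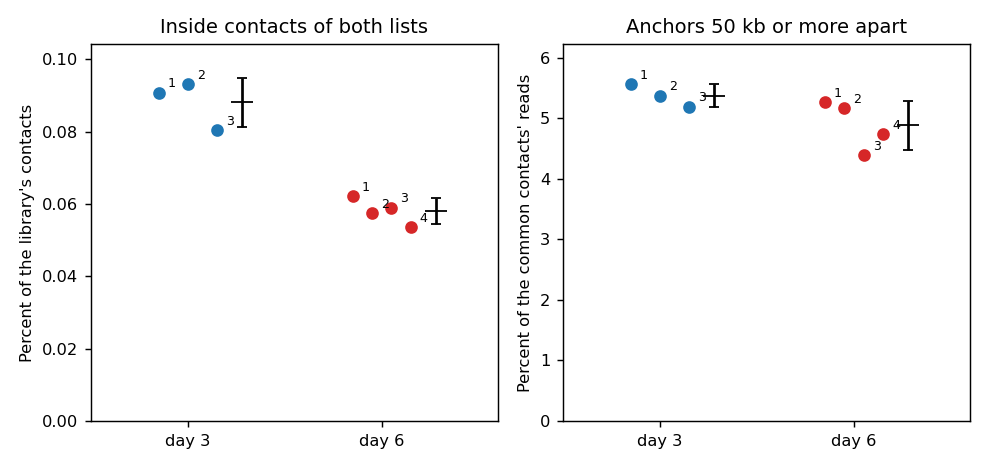
Left, percent of each library's contacts (y axis) that fall in contacts of both lists; right, percent of the reads in common contacts whose anchors lie 50 kb or more apart. Points are libraries with their replicate number and bars are mean ± SD; on the left the 4 day 6 libraries, at 0.0535% to 0.0622%, lie under the 3 day 3 libraries, at 0.0804% to 0.0931%.

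Because the whole set was lower, single contacts were tested against this shift: edgeR's quasi-likelihood test with TMM scaling asks which common contacts changed more or less than most. Of 2571 tested, 137 were called at an adjusted p under 0.05 (5.33%), 103 lower (4.01%) and 34 higher (1.32%) at day 6. The lower contacts went from a median of 13.0 to 4.58 CPM, and in all 103 every day 6 library was below every day 3 library. The higher contacts had medians of 6.02 and 6.12 CPM, and in 28 of the 34 the mean CPM was above that of day 3. Leaving out day 3 replicate 2 gave 81 calls, leaving out day 6 replicate 3 gave 88, and leaving out day 6 replicate 4 gave 69. With the 4 day 6 libraries summed to 1 sample there were 84 lower and 21 higher. Scaled by contact totals alone, which leaves the shift in, 61.8% were called, 1584 lower (61.6%) and 6 higher (0.233%), and 109 of the 137 were among them. Only contacts that passed the CPM filter at both days could be tested, so a contact that fell below it has no day 6 value. DESeq2 called 39, 32 lower and 7 higher, all among the 137.

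**Figure D2:**
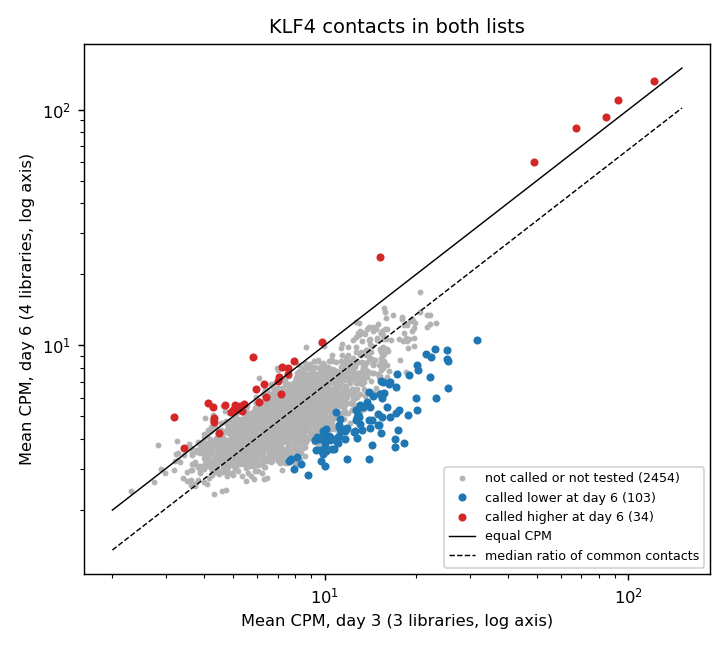
Mean CPM of each of the 2591 common contacts at day 3 (x axis, 3 libraries) and day 6 (y axis, 4 libraries), both on log axes. The solid line marks equal CPM and the dashed line the median ratio of 0.677; the 103 contacts called lower lie far under the dashed line, most of the 34 called higher lie near the solid line, and the 5 points above 40 CPM on both axes are contacts within Sfi1.

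Among the 9 lower contacts with the smallest p that are reported, the first linked the start of Akap7, a kinase anchoring protein, to its gene body (chromosome 10, bins starting at 25270001 and 25290001). Its libraries had 22.9, 17.5 and 14.4 CPM at day 3 and 5.02, 3.01, 3.83 and 3.47 CPM at day 6. All 4 day 6 values were under the lowest day 3 value, and the means, 18.3 ± 4.32 (SD, n = 3) and 3.83 ± 0.858 (SD, n = 4), differed 4.76-fold. The 9 contacts were chosen among calls whose libraries do not overlap between the days, so the lack of overlap is no further result. The change of the Akap7 contact against the typical common contact was -1.65 ± 0.19 on the log2 scale (SE; edgeR, adjusted p = 1.5e-08). The contact between the start of Tubb5, a beta-tubulin, and that of Nrm and Ppp1r18 (chromosome 17, 35830001 and 35860001) had 24.1, 20.9 and 15.4 CPM at day 3. At day 6 it had 6.64, 5.02, 4.14 and 5.47 CPM, again without overlap, and the log2 change was -1.23 ± 0.19 (edgeR, adjusted p = 8.02e-06). Ppp1r18 encodes a protein phosphatase subunit that binds actin.

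Ahnak encodes a very large scaffold protein under the cell membrane and is on the fibroblast list. An 80 kb contact within its body (chromosome 19, 8990001 and 9070001) had 28.1, 26.4 and 22.0 CPM at day 3 and 5.46, 4.45, 6.80 and 9.61 CPM at day 6. The groups did not overlap, and the log2 change was -1.27 ± 0.20 (edgeR, adjusted p = 1.17e-05). With only day 3 replicate 3 and day 6 replicates 3 and 4, which the CPM filter did not use, it was -0.88 (adjusted p = 0.0509), a fit with 1 day 3 library that takes the spread from the day 6 libraries. Zfp36 encodes tristetraprolin, which speeds the decay of AU-rich mRNAs. The contact between the bin of its start, which also holds the start of Plekhg2, and the adjacent bin in the body of Med29, a Mediator subunit (chromosome 7, 28370001 and 28380001), fell from 15.3 ± 2.52 to 4.26 ± 0.559 CPM (SD, n = 3 and 4; edgeR, adjusted p = 1.17e-05). The start of Chaserr, a long noncoding RNA (chromosome 7, 73550001), and a bin 60 kb away without a gene fell from 17 ± 3.82 to 4.01 ± 0.490 CPM (edgeR, adjusted p = 2.9e-06). The other 4 were within Ptprm, an adhesion phosphatase (4.57-fold), between Mthfd2l and Epgn, a ligand of the EGF receptor (4.24-fold), at Pipox, a peroxisomal oxidase (3.80-fold), and within Sap30bp (3.70-fold), each with lower CPM in all 4 day 6 libraries than in any day 3 library. Among further calls, the contact of Malat1 with Neat1, a pair of nuclear long noncoding RNAs (chromosome 19, 5800001 and 5840001), fell from 23.2 to 5.97 CPM (log2 change -1.29, edgeR, adjusted p = 1.57e-05). It was picked after its values were seen.

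**Figure D3:**
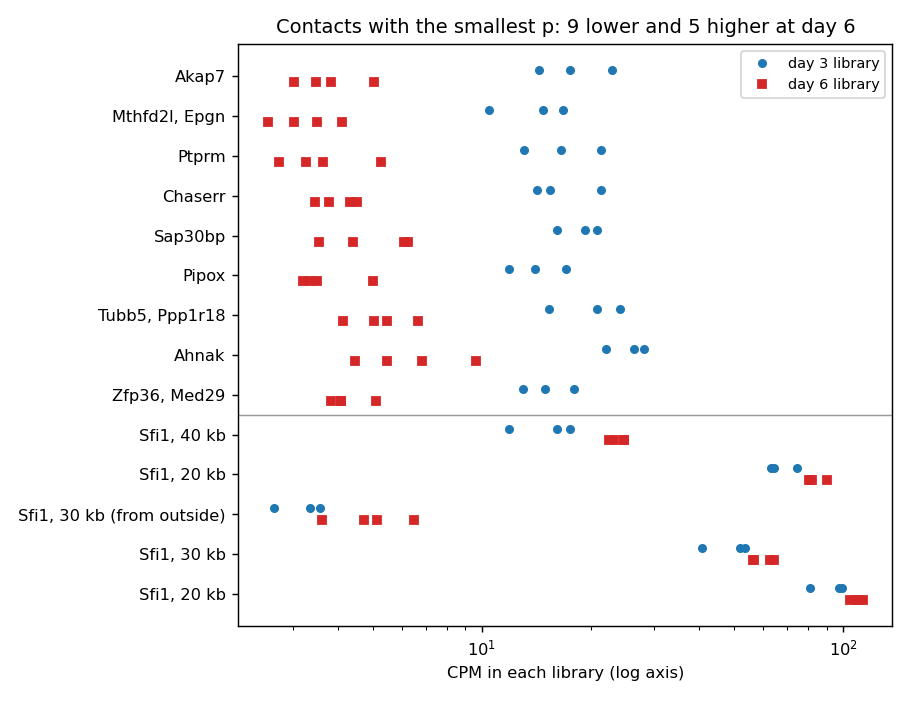
CPM in each library (x axis, log scale) of 9 lower and 5 higher contacts with the smallest p whose libraries do not overlap between the days, named by the genes at their anchors. Circles are the 3 day 3 libraries and squares the 4 day 6 libraries; above the line the squares lie under 10 CPM and the circles over 10 CPM, and below it the squares lie to the right of the circles.

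The higher contacts that did not overlap were 5 in number, and all lay near the start of chromosome 11 within or beside Sfi1, which encodes a centrosomal protein. The contact between the bins at 3130001 and 3170001 had 11.9, 17.6 and 16.2 CPM at day 3 and 22.4, 24.8, 24.7 and 23.1 CPM at day 6, a 1.56-fold higher mean (log2 change 1.20 ± 0.14, edgeR, adjusted p = 3.49e-08). It stayed higher by contact totals (log2 change 0.61, adjusted p = 0.00118). The contact from 3150001 to 3170001 went from 67.3 ± 6.28 to 83.3 ± 4.43 CPM, 1.24-fold (SD, n = 3 and 4; edgeR, adjusted p = 9.93e-06). With the 4 day 6 libraries summed to 1 sample, which is then assumed to vary like the day 3 libraries, its adjusted p was 0.059, and that of the contact from 3170001 to 3190001 was 0.149. The contact from 3120001, outside the gene, to 3150001 had 3.19 ± 0.473 and 4.98 ± 1.19 CPM, and its adjusted p was 0.136 with replicates 1 and 2 of each day alone. Around Sfi1 the lists held 8 contacts each, 7 of them shared. Of the 8 at day 6, 1 was in the MEF H3K27ac list, 4 in the ES H3K27ac list, 3 in the ES KLF4 list and 8 in the MEF Hi-C list. Without the start of chromosome 11, an alternative chosen after seeing the data, 129 contacts were called, 27 higher and 102 lower.

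The 27 higher calls elsewhere had a median of 5.41 CPM at day 3 and 5.70 CPM at day 6. They were called relative to the median common contact, which was lower at day 6. The contact of Zbtb45, whose promoter is shown above, with the body of Slc27a5 and Zfp446 had 5.62, 5.33 and 5.29 CPM at day 3 and 4.21, 6.78, 6.22 and 5.24 CPM at day 6, which overlap. Its log2 change was 0.78 ± 0.19 under TMM (edgeR, adjusted p = 0.00453) and 0.18 by contact totals (adjusted p = 0.406). A contact of 180 kb on chromosome 17, from the body of 9630028I04Rik at 27230001 to a bin without a gene at 27410001, had 3.83, 7.53 and 6.04 CPM at day 3 and 11.5, 7.09, 6.77 and 10.5 CPM at day 6. Its libraries overlapped, the mean was 1.54-fold higher at day 6, and the log2 change was 1.10 ± 0.21 under TMM (edgeR, adjusted p = 0.000203) and 0.50 by contact totals (adjusted p = 0.0484).

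Summed over the common contacts at each anchor, 130 of 792 bins were called in edgeR's test (16.4%), 83 lower (10.5%) and 47 higher (5.93%). Without day 6 replicate 4 there were 83 calls, and contact totals called 89% of bins, 703 lower (88.8%) and 2 higher (0.253%). The bin in the body of Sap30bp fell from 47.2 ± 6.85 to 15.4 ± 1.22 CPM (SD, n = 3 and 4; log2 change -0.90, edgeR, adjusted p = 3.75e-11), the Chaserr bin from 28 ± 4.63 to 7.90 ± 1.10 CPM, the distal Ahnak bin from 40.6 ± 8.11 to 11.2 ± 1.5 CPM, and the Nrm and Ppp1r18 bin from 50.8 ± 6.08 to 18.3 ± 1.51 CPM. In each of these 4 bins every day 6 library was below every day 3 library. Among the higher bins with the smallest p, 2 were in Sfi1. The bins in Akt1, the growth factor kinase (8.50 ± 2.62 and 9.46 ± 1.08 CPM), at the start of Ipo4, a nuclear import receptor (10.8 ± 0.455 and 11.3 ± 0.761 CPM), and in 9630028I04Rik (26.6 ± 2.92 and 28.5 ± 3.28 CPM) overlapped between the days. These 3 were called under TMM and not by contact totals (adjusted p = 0.371, 0.688 and 0.421), and with replicates 1 and 2 of each day alone the Akt1 and Ipo4 bins were not called (adjusted p = 0.243 and 0.0541).

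Windows around called contacts are given next, and over the whole day 3 list 10.9% of contacts were also listed at day 6. In a window of 190 kb around Ahnak, 61 contacts were listed at day 3 and 18 at day 6, 17 of them shared. The summed CPM of the shared contacts was 217, 210 and 189 at day 3 and 118, 102, 92.4 and 108 at day 6, without overlap, a ratio of 0.513 where the median common contact had 0.677. Within the window 3 of 16 tested contacts were called lower and 1 higher. The called contact from the start of Ahnak to the bin at 9070001 fell from 15.1 ± 5.97 to 4.61 ± 1.19 CPM (edgeR, adjusted p = 0.00548), but was not called without day 6 replicate 4 (adjusted p = 0.0538) or with replicates 1 and 2 of each day alone (log2 change -0.70, adjusted p = 0.556). In a window of 140 kb around Tubb5 and Ppp1r18 there were 33 and 9 contacts, all 9 shared, 5 called lower and 0 higher, with a ratio of 0.441. Around Malat1 and Neat1, over 150 kb, 24 and 8 were listed, 2 of the 8 shared were called lower, and the ratio was 0.498. Every day 6 contact of the Tubb5 and Malat1 windows was in both the MEF and the ES H3K27ac lists. These windows were drawn around contacts already called, so their counts are descriptions. The shares of their day 3 contacts that were also listed at day 6 (17 of 61, 9 of 33 and 8 of 24) were above that of the whole list. Called contacts are in both lists by definition, so this choice of windows raises the shares.

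The reverse case lay on chromosome 17 between 9630028I04Rik and Grm4, a glutamate receptor gene, where a window of 290 kb held 8 contacts at day 3 and 20 at day 6, 4 of them shared. The 16 contacts of day 6 alone had mean CPMs from 2.70 to 12.3, with a median of 4.63. The contact between the adjacent bins at 27390001, with the start of Gm35007, and 27400001 had 11.5, 12.4, 10.9 and 14.4 CPM in the day 6 libraries. The next pair, 27400001 and 27410001, had 9.05, 9.46, 8.27 and 10.3 CPM, and the pair at 27300001 and 27310001, beside Mir7214, had 11.5, 6.21, 11.3 and 7.29 CPM. The bin at 27400001, which holds no gene, had 1 contact at day 3 and 8 at day 6, and the bin at 27300001 had 1 and 6. The 4 shared contacts all started at the 9630028I04Rik bin, with summed CPMs of 27.4, 29.0 and 23.4 at day 3 and 31.4, 28.1, 24.1 and 30.5 at day 6, which overlap. Of the 20 day 6 contacts 0 were in the MEF H3K27ac list, 1 in the KLF4 list of embryonic stem (ES) cells, 5 in the ES H3K27ac list and 16 in the MEF Hi-C list. The region was picked for its difference in number, and a contact that a list lacks has no value there, so no test was made.

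**Figure D4:**
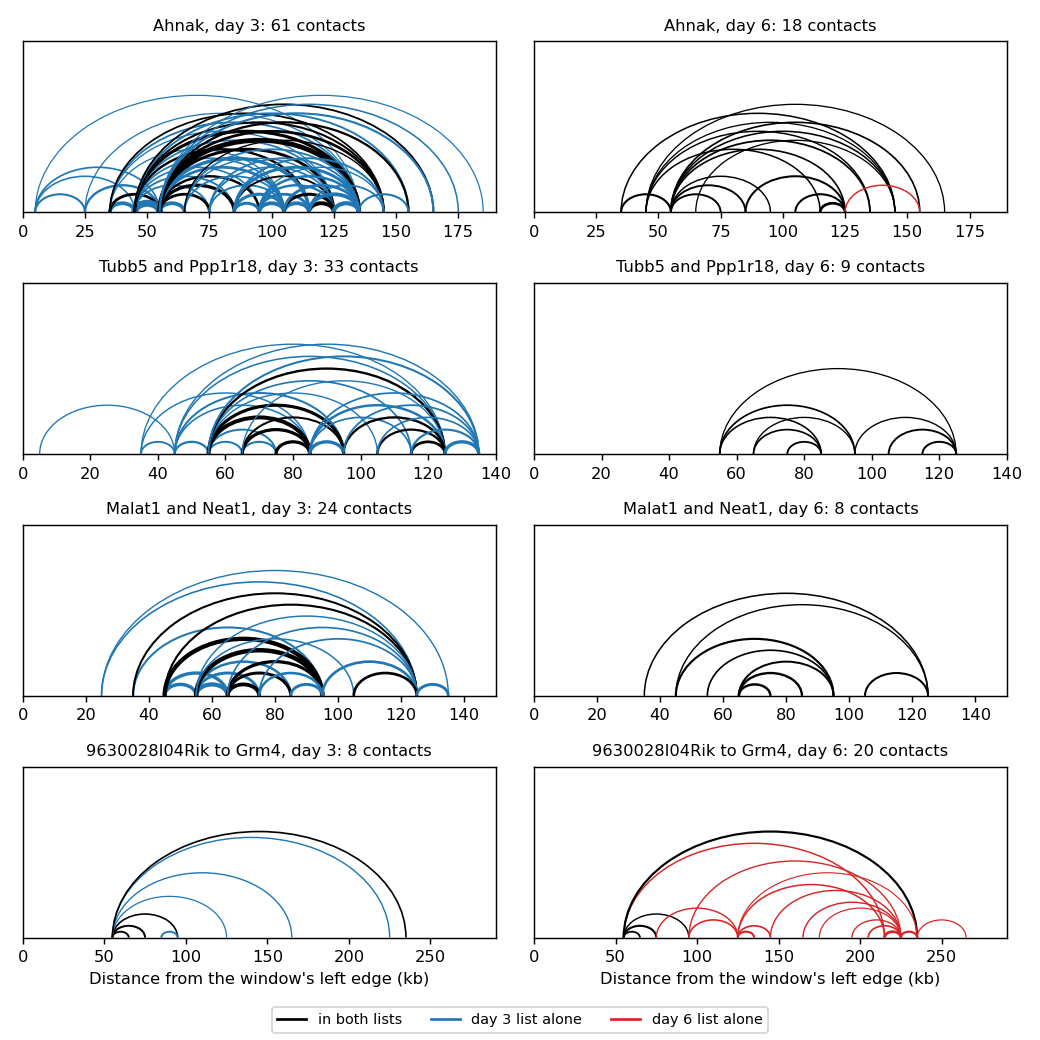
Listed contacts as arcs between the centres of their bins in windows around Ahnak, around Tubb5 and Ppp1r18, around Malat1 and Neat1, and from 9630028I04Rik to Grm4, at day 3 (left) and day 6 (right); the x axis is the distance from the left edge of the window in kb and the line width grows with mean CPM. Black arcs are in both lists and coloured arcs in 1 list alone; the first 3 windows go from 61 to 18, 33 to 9 and 24 to 8 contacts, and the last from 8 to 20.

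Bins also differed in how many contacts they held. In all, 23624 bins held a contact at day 3 and 6088 at day 6. Most bins went down with the shorter list, as 21710 had fewer contacts at day 6 and 1588 had more. At day 3, 229 bins had 10 contacts or more, and at day 6 1 bin did, at the start of Gbf1, a regulator of Golgi traffic (chromosome 19, 46150001), with 6 contacts at day 3 and 11 at day 6. Its 4 shared contacts summed to 51.0 ± 4.76 CPM at day 3 and 32.2 ± 1.47 CPM at day 6, close to the general ratio (log2 change -0.08, edgeR, adjusted p = 0.688). The start of Tcf7l2, the Wnt effector (chromosome 19, 55740001), went from 20 contacts to 0. Other large falls in number were at bins without a gene on chromosome 19 at 37880001 (23 to 2) and 32880001 (26 to 7) and on chromosome 15 at 36400001 (22 to 4), and in Gnaq (chromosome 19, 16250001, 21 to 1). The 2 shared contacts at 37880001 summed to 16.3 ± 2.12 CPM at day 3 and 10.5 ± 2.44 CPM at day 6 (log2 change -0.12, edgeR, adjusted p = 0.746). At 32880001 the 7 shared contacts fell from 79.2 ± 3.81 to 43.6 ± 7.75 CPM (log2 change -0.33, edgeR, adjusted p = 0.0194), and at 36400001 the 4 shared contacts fell from 35.7 ± 3.35 to 19 ± 4.01 CPM (log2 change -0.33, edgeR, adjusted p = 0.031). A bin in the body of Gm41625 (chromosome 17, 79950001) went from 0 to 5. These numbers come from 1 list per day and have no replicate check. Of day 3 contacts 9.52% and of day 6 contacts 16.3% lay on chromosome 19, the chromosome with the fewest contacts per library.

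Strong day 3 contacts were listed at day 6 more often than weak ones. Of day 3 contacts under 5 CPM 2.67% were listed at day 6, against 13.3% at 5 to 8 CPM, 29.4% at 8 to 12, 39.1% at 12 to 20 and 65% (26 of 40) at 20 or more. From the day 6 side the share listed at day 3 was 60.3% under 5 CPM and 69.2% at 5 to 8. The gap between the directions follows in part from the lengths of the lists. With the day 3 list reduced to its 4047 strongest contacts, each list shared 30.1% with the other. Of those strongest day 3 contacts 63.4% (95% Wilson interval 61.9 to 64.8) were in the MEF H3K27ac list, against 53.3% (51.8 to 54.9) of the day 6 list, while for the ES H3K27ac list the shares were 59.1% and 58.5%. For the MEF Hi-C list they were 53.5% (52.0 to 55.1) and 66.0% (64.5 to 67.4), and for the ES KLF4 list 49.4% and 51.4%. Adjacent bins made up 65.3% of the strongest day 3 contacts and 44.9% of the day 6 list. Chromosome 19, where a given count gives the highest CPM, made up 22.1% and 16.3%. Both may bear on the other shares, which was not tested.

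Among contacts of 1 list alone, the 5 strongest of each day were all on chromosome 19. CPM is scaled to the contact total of each chromosome, and chromosome 19 has the fewest contacts. A given count therefore gives the highest CPM there, and a ranking by CPM favours that chromosome. At day 3 the strongest were at Ahnak, at Avpi1 and from the bin with the starts of Pdzd7 and Sfxn3 into the bodies of both (27.1 ± 7.93 CPM, SD, n = 3). The others were at Slc3a2, an amino acid transporter subunit (24.3 ± 1.66 CPM), and at Marveld1 (24.3 ± 4.28 CPM). Of the 5, 4 had a day 6 contact within 1 bin at both anchors. All 5 were in the MEF H3K27ac, ES H3K27ac and ES KLF4 lists and 1 in the MEF Hi-C list. At day 6 they were at Ppp6r3, Sec31b, Stip1, a chaperone adaptor (13.6 ± 1.76 CPM, SD, n = 4), Gm30263 (13.4 ± 3.86 CPM) and Rtn3, a reticulon of the endoplasmic reticulum (13.3 ± 2.65 CPM). All 5 were in the MEF Hi-C list and 0 in the ES KLF4 list, and only that at Stip1 was in the MEF and ES H3K27ac lists. Over all contacts, 15.9% of those of day 3 alone lay within 1 bin of a day 6 contact, and 36.8% of those of day 6 alone within 1 bin of a day 3 contact.

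At matched day 3 strength, contacts that ES KLF4 shares were listed at day 6 more often. In the class of 5 to 8 CPM, 20.1% (18.8 to 21.4) of day 3 contacts in the ES KLF4 list were listed at day 6 and 9.22% (8.51 to 9.98) of the others. At 8 to 12 CPM the shares were 37.5% (34.9 to 40.2) and 21.8% (19.7 to 24.0). A gap was also seen between contacts in both H3K27ac lists, MEF and ES, and those in neither. It was 17.5% (16.2 to 18.9) against 10.3% (9.26 to 11.5) at 5 to 8 CPM, and 35.7% (32.9 to 38.5) against 21.1% (17.9 to 24.8) at 8 to 12 CPM. Contacts with a gene start at both anchors, at 1 and at neither were listed at day 6 in 10.6%, 11.1% and 10.9% of cases. Contacts 50 kb or more apart were listed in 4.79% of cases over all strengths and those of adjacent bins in 16.3%. At 5 to 8 CPM the shares were 11.5% (9.53 to 13.8) and 12.04% (11.1 to 13.0), which overlap, and at 8 to 12 CPM 49% (49 of 100) and 27.5%. The libraries of ES KLF4 are no part of the comparison, and the intervals cover counting error only, as contacts share anchors.

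Of the 103 contacts called lower, 93 (90.3%, 83.0 to 94.6) were in the MEF H3K27ac list and 88 (85.4%, 77.4 to 91) in the ES H3K27ac list, against 60.3% and 62.7% of the 2434 tested contacts that were not called. The ES KLF4 list held 80 of the lower contacts (77.7%, 68.7 to 84.6) and 57.3% of those not called. Tested contacts in the ES KLF4 list were called lower in 5.36% of cases and the others in 2.13%. The called contacts were stronger at day 3, and at 8 to 12 CPM the MEF H3K27ac shares were 38 of 39 (97.4%, 86.8 to 99.5) for lower contacts and 68.4% (65.0 to 71.7) for those not called. At 12 to 20 CPM they were 87.2% (74.8 to 94.0) and 74.2% (67.3 to 80.0), and these intervals overlap. The gap at 8 to 12 CPM was not limited to the MEF list. For ES H3K27ac the shares there were 87.2% (73.3 to 94.4) for lower contacts and 66.4% (62.9 to 69.7) for those not called. For ES KLF4 they were 82.1% (67.3 to 91.02) and 60.7% (57.2 to 64.2). At 12 to 20 CPM the shares were 80.9% and 75.3% for ES H3K27ac and 70.2% and 73.03% for ES KLF4, with overlapping intervals. Of the 34 higher contacts, 41.2% (26.4 to 57.8) were in the MEF H3K27ac list and 64.7% in that of ES. By list, 81 of 1158 tested contacts found in both H3K27ac lists were called lower and 11 higher. Contacts of the MEF list and not the ES list were called lower in 12 (2.88%) and higher in 3 of 416 cases, and those of the ES list and not the MEF list lower in 7 and higher in 11 of 479. Contacts of neither list were called lower in 3 and higher in 9 of 518 cases. Median day 3 CPMs were 7.88 in the class of both lists and 6.64 in that of neither. Median log2 changes were -0.05 with both lists, -0.003 with the MEF list alone, 0.11 with the ES list alone and 0.12 with neither, beside 0.02 over all tested contacts.

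Gene lists were then read through the bins of their RefSeq starts. Over all 17491 protein-coding genes matched, 4294 (24.5%) had a contact at day 3 and 1293 (7.39%) at day 6. Of the former 24.0% were kept, which means that they had a contact at day 6 too, not always the same one. The kept share was 54.5% for epithelial genes (6 of 11), 42.9% for architecture and coactivator genes (3 of 7), 40% for cell cycle genes (2 of 5), 36.4% for AP-1 and TEAD genes (4 of 11), 33.3% for fibroblast genes (5 of 15), 22.2% for KLF and SP factors (2 of 9) and 16.7% for pluripotency genes (1 of 6). Counted by contact, 10.9% of day 3 contacts at all protein-coding starts were listed at day 6. The share was 15.6% at epithelial, 13.3% at architecture and coactivator, 13.3% at AP-1 and TEAD and 11.5% at fibroblast genes. It was 9.52% at cell cycle genes, 7.14% at pluripotency genes and 4.88% at KLF and SP factors. Only 133 of the 188 list members matched a start, and the others were not analysed here. Calls at list members were 2, both lower, where 36 of 873 tested contacts at protein-coding starts were called lower and 9 higher.

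Fibroblast and mesenchymal genes had contacts at 15 of 27 matched members at day 3 and at 5 at day 6. The 5 were Ahnak, Acta2, Tpm1, Tgfbr2 and Col6a1, and 1 of their 9 tested contacts was called lower, that of Ahnak described above, and 0 higher (median log2 change -0.38). Acta2, smooth muscle actin, contacted the start of Fas (chromosome 19, 34250001 and 34290001) at 14.0, 14.4 and 12.1 CPM at day 3 and 3.64, 5.34, 5.67 and 6.86 CPM at day 6. These did not overlap, and the log2 change of -0.67 did not pass relative to other contacts (edgeR, adjusted p = 0.0915). Tpm1, a tropomyosin, had 6.31 ± 2.04 and 2.71 ± 0.634 CPM at a contact of 50 kb (adjusted p = 0.266 in edgeR). The collagen gene Col6a1 had 4.22 ± 0.680 and 3.73 ± 0.746 CPM, which overlap. Runx1, a transcription factor of fibroblast and blood programs, had a contact of day 3 alone at 20.3, 21.1 and 14.9 CPM between its start and body. Vim, the mesenchymal intermediate filament, had one at 15, 11.1 and 7.86 CPM. Neither pair was in the day 6 list, and the contact of the Ahnak start with the adjacent bin of its body, at 50.7, 37.2 and 29.1 CPM, was of day 3 alone too.

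Genes of AP-1, the Jun and Fos dimer bound at fibroblast enhancers, and of the TEAD factors had contacts at 11 of 15 matched members at day 3 and at 4 at day 6, which were Jun, Junb, Fos and Fosb. The contact of the Junb start with the adjacent bin in Hook2 (chromosome 8, 84970001 and 84980001) had 15.8, 13.3 and 11 CPM at day 3 and 5.75, 5.43, 5.35 and 5.27 CPM at day 6. It fell without overlap (log2 change -0.59 ± 0.17, edgeR, adjusted p = 0.0263). The call did not hold without day 3 replicate 2 (adjusted p = 0.0689) or without any 1 of day 6 replicates 1 to 4 (0.0524, 0.0826, 0.0995 and 0.0828), nor in DESeq2 (0.167). The Fos start had 10.9 ± 0.989 and 6.70 ± 1.02 CPM at a contact with the next bin (log2 change -0.03, edgeR, adjusted p = 0.957), so it kept to the general ratio. On its other side Fos had a contact of day 3 alone at 11.4, 12.5 and 10.6 CPM. For Jun and Fosb the day 6 contacts, with 4.23 ± 0.275 and 3.07 ± 0.360 CPM, were not in the day 3 list, which held others at their starts.

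Epithelial genes had contacts at 11 of 19 matched members at day 3 and at 7 at day 6, the highest day 6 share of the lists (36.8%). Of the 11, 6 were kept (54.5%), namely Epcam, Krt8, Krt18, Cldn6, Spint2 and Crb3, and Lsr was of day 6 alone. None of their 5 tested contacts was called (0 at an adjusted p under 0.05 in edgeR), with a median log2 change of 0.14. Epcam, an epithelial adhesion molecule, had 3.83, 9.25 and 8.0 CPM at day 3 and 9.05, 4.73, 6.02 and 6.61 CPM at day 6 between its start, shown above, and the adjacent bin. The values overlap, and the means were 7.03 ± 2.84 and 6.60 ± 1.81 CPM. Crb3, a polarity protein, had 5.47, 9.25 and 10.1 CPM and 6.64, 7.09, 8.65 and 5.47 CPM at its contact with the next bin, which overlap too. Spint2, a serine protease inhibitor, had 8.28 ± 1.36 and 4.34 ± 0.958 CPM, without overlap, and Cldn6, a claudin, 7.28 ± 0.221 and 5.28 ± 0.267 CPM. Krt18, a simple-epithelium keratin, had 2 contacts of day 6 alone, at 5.55, 5.68, 8.78 and 6.07 CPM and at 6.05, 5.43, 5.96 and 7.20 CPM, and its day 3 contacts joined other bins. Lsr, a tricellular junction receptor, had 2 contacts of day 6 alone, of 3.57 ± 0.887 and 4.23 ± 0.558 CPM. With the day 3 list reduced to the length of the day 6 list, 4 epithelial genes had contacts at day 3 and 7 at day 6. Of all protein-coding genes 1106 and 1293 did. Fibroblast genes went from 8 to 5, architecture and coactivator genes from 1 to 3, and cell cycle genes from 3 to 2. KLF and SP factors went from 3 to 2 and genes of other cell types from 1 to 0. AP-1 and TEAD genes stayed at 4 and pluripotency genes at 2. These are few genes, and the differences were not tested.

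Among pluripotency genes, 6 of 21 matched members had a contact at day 3 and 2 at day 6. Fgf4, a growth factor of the early embryo, had its contact at both days, at 7.49, 8.64 and 6.94 CPM and at 4.21, 3.95, 5.02 and 5.68 CPM, lower in all 4 libraries and near the general ratio (log2 change 0.03, edgeR, adjusted p = 0.961). Zfp42, also called Rex1, had a contact 20 kb from its start at day 6 alone, at 5.34, 3.02, 2.29 and 2.48 CPM. Pou5f1, Nanog, Klf2, Mycn and Nodal had contacts at day 3 alone, of at most 7.95, 5.51, 6.82, 3.66 and 5.59 CPM. The start of Klf4 itself had 0 contacts at either day.

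The other lists went the same way in number. Cell cycle genes had contacts at 5 and 2 of 11 matched members, and Cdkn1a, the p21 inhibitor, had 2 shared contacts that were not called, of which that with the adjacent bin had 14.6 ± 3.96 and 6.23 ± 0.616 CPM (edgeR, adjusted p = 0.155). KLF and SP factors, which bind the same kind of site, had contacts at 9 and 2 of 14, the 2 being Klf9 and Sp1. Sp1 had 9.85 ± 1.34 and 6.70 ± 0.886 CPM at a contact with the next bin (log2 change 0.13, edgeR, adjusted p = 0.781), and Klf9 kept a contact of 200 kb to the body of Trpm3 at 4.57 ± 0.237 and 3.20 ± 1.17 CPM. Klf9 also had contacts of day 3 alone with the bins on both sides of its start, at 12.8 ± 1.83 and 12.3 ± 4.29 CPM. Architecture and coactivator genes had contacts at 7 and 3 of 15, the 3 being Ctcf, Yy1 and Crebbp, and 0 of their 2 tested contacts were called. Of 11 matched genes of other cell types, Tek, an endothelial receptor, had contacts at day 3, and 0 genes had one at day 6.

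**Figure D5:**
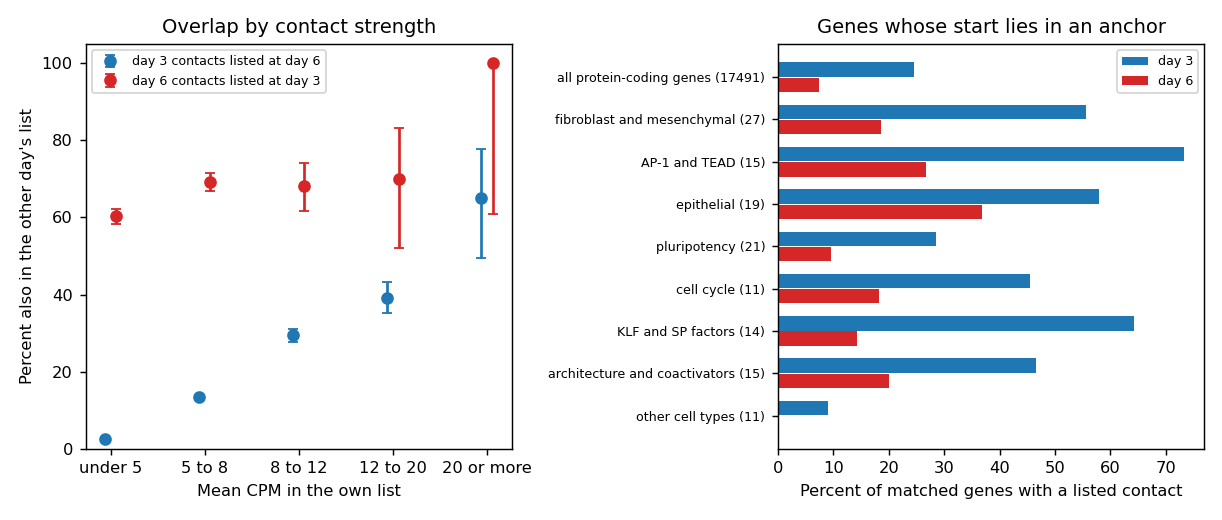
Left, percent of contacts also in the list of the other day (y axis) by mean CPM in the own list (x axis), with 95% Wilson intervals; right, percent of matched genes (x axis) of each gene list, with the number matched in brackets, whose start lies in an anchor at day 3 or day 6. On the left the day 3 contacts climb from 2.67% to 65%, and on the right the epithelial list has the highest day 6 bar, 36.8%, against 7.39% of all protein-coding genes.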

How the data were processed

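KLF4 HiChIP libraries of day 3 (3) and day 6 (4) of reprogramming were compared. The authors aligned reads to mm10 with Bowtie2 2.2.3, per the submitters' processing notes; the contact caller and its filters are not given in the sources used here. The deposited lists give, per contact and library, raw counts and CPM, per the file headers; in the values, CPM is scaled to the contact total of the same chromosome. They also give the authors' p-value and FDR for each contact and, per the file headers, a ratio normalised for distance, none of which was used. Values of a contact exist only for the day whose list holds it. All per-sample columns used matched a sample title, and 0 did not.

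Counts of the contacts in both lists were tested with edgeR 4.0.16 (quasi-likelihood, TMM scaling, low counts filtered, Benjamini-Hochberg adjustment, threshold 0.05) in R 4.3.3, and summed over bins with at least 2 such contacts. DESeq2 1.42.0, contact totals, a replicate block and libraries left out were alternatives. Single values per library were compared with an exact permutation test in scipy 1.17.1. The scripts were tested on simulated data. The library totals, which set the precision, were 48.7 to 181 M contacts. Correlations of deviations between same-numbered libraries were 0.014, 0.013 and 0.0097, and those between other libraries of the 2 days lay from -0.0575 to 0.05975. Counting noise enters every deviation, so these values cannot decide whether the numbers pair the samples.

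Named contacts were up to 10 in each direction with the smallest p among calls whose libraries do not overlap (10 lower, 5 higher), the 5 strongest of each list alone, and for bins the 5 in each direction by p and by difference in number of contacts. Genes were those of 8 lists at called contacts or bins and then those with most contacts. Contacts named outside this rule are said to be so or were picked for the figure of loci. One of the 10 lower contacts, with its bin, is not reported here. The members and lists were chosen with earlier results of these data known. Gene starts and promoters came from RefSeq (GRCm38.p6).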

Additional observations from a re-analysis of the deposited data

Results flagged for a closer look

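In 32 groups of 4 day 6 values, 2 had 1 library far from the others, where chance gives about 1 in 20. At the lower contact by Pipox on chromosome 11 (77870001 and 77890001), 1 day 6 library had 4.995 CPM and the others 3.201 to 3.501 CPM, all under the lowest day 3 library. At the higher contact within Sfi1 (3150001 and 3170001), 1 day 6 library had 89.9 CPM and the others 80.4 to 81.8 CPM, all above the highest day 3 library.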

How the results depend on the processing

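The number of called contacts (137) moved most with the scaling: contact totals gave 1590, and totals of each chromosome 1557, with higher calls at 24.8% of all calls under TMM and 0.377% under contact totals. It was 39 with DESeq2, 90 of 1377 with anchors at least 20 kb apart, 8 of 208 at 50 kb or more, 32 with replicates 1 and 2 alone and 40 with the further replicates alone. With the replicate block it was 89 (83 of them among the 137), and leaving out 1 library gave 69 to 129. For bins (130) the values were 705 by contact totals, 698 by chromosome totals, 45 with DESeq2, 59 at 20 kb, 6 at 50 kb, 56 with replicates 1 and 2, 55 with the further replicates, 88 with the replicate block and 83 to 130 without 1 library. The cause was not tested, apart from the fewer contacts or libraries in some of these. Of 287 comparisons over 17 named contacts, 272 kept direction and call, 15 lost the call and 0 reversed. For 10 named bins, 161 of 169 kept both, 8 lost the call and 0 reversed.

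The share of day 6 contacts listed at day 3 (64.0%) was 77.3% with anchors allowed 1 bin apart, 30.1% at equal list length, 69.7% with 1 count cutoff for all chromosomes and 59.4% at 50 kb or more. The share of day 3 contacts listed at day 6 (10.9%) was 25.1%, 30.1%, 3.70% and 4.79% under the same settings, and 5.59% with at least 6 CPM. Contacts of 50 kb or more made up 19.99% of the day 3 list, 5.39% at 6 CPM or more and 4.06% with 1 count cutoff, and for day 6 9.44%, 3.16% and 0.538%. The median log2 CPM ratio stayed between -0.62 and -0.51 in every setting run. Depth limits single contacts: a common contact had a median of 11 counts in the shallowest library.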
